A study of Mus musculus with 12 samples.

Results

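Slc39a4 and Slc39a5 encode the zinc importers ZIP4 and ZIP5, which sit on opposite faces of the enterocyte, the absorptive cell of the gut. They were taken by gene symbol from a table of 17112 genes, and both of the 2 were found and passed the filter on low values. The RNA came from 12 libraries of whole small intestine of C57BL/6 mice, 1 library per mouse, in 6 groups of 2. KO mice (labelled Zip4 KO, diets with 40 ppm zinc) were 198 to 240 days old, HET mice (Zip4 het, 15 ppm) were 141, 143, 338 and 363 days old, and WT mice (15 ppm) were 210 to 237 days old. In each genotype 2 mice were fed zinc bound at the hydroxy end of an organic complex and 2 were fed zinc bound at the amino end. The series text gives 15 ppm for every genotype, so where the sample labels hold, the genotype and the zinc level of the KO mice cannot be told apart. The sources used here do not give the kind of knockout (its tissue, its timing or the exons removed).

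Proteins of the ZIP family carry zinc into the cytosol, and those of the ZnT family carry it out of the cytosol. ZIP4 lies on the apical membrane, where it takes up zinc from food, and loss of it in humans causes the zinc deficiency disease acrodermatitis enteropathica. In mice, zinc shortage stabilises its mRNA and zinc supply drives the protein off the cell surface. ZIP5 lies on the basolateral membrane, facing the blood, and is also made in pancreatic acinar cells. In mice its protein is made when zinc is plentiful and is lost in zinc shortage, while its mRNA stays in the cell.

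Values are CPM, each gene's reads as parts of the reads of its library, so that libraries of unequal depth share a scale. Steps in the low values gave 26.0 to 38.8 M reads per library, and 3 reads correspond to 0.0774 to 0.115 CPM. At this depth Slc39a4 held an estimated 1398 to 10369 reads per library and Slc39a5 3823 to 6039. Gut epithelium was present: all 13 epithelial and all 16 absorptive enterocyte markers were detected. These lists do not show which segments of the small intestine a library holds. The pancreatic markers Prss2, a trypsinogen, and Pnlip, a lipase, were at 0 to 0.201 CPM. Of 11 pancreatic markers in the table, 3 were detected: Clps at 14.3 to 57.5 CPM, Rnase1 at 5.89 to 13.6 CPM and Pnliprp1 at 0.221 to 2.03 CPM. None of the others reached 1 CPM in any library. The 11 summed to 34.7 to 51.0 CPM in KO, 24.8 to 72.6 CPM in HET and 24.0 to 61.5 CPM in WT, most of it Clps and Rnase1. Some libraries stood apart. KO amino 1 is labelled male but held 244 CPM of Xist, which is transcribed from the inactive X of females, and no read of the Y-linked gene Ddx3y. KO amino 2 is labelled female but held 0.155 CPM of Xist and 32.2 CPM of Ddx3y. Both belong to the same group. All libraries but KO amino 1 held 25.0 to 44.3 CPM of Ddx3y and at most 0.877 CPM of Xist. By these genes the only female library thus lay in KO amino, and the part of sex in the comparisons below was not tested. WT hydroxy 1 and HET amino 2 were the only libraries above 1 CPM of Fabp6, an ileal bile acid carrier with a median of 0.111 CPM. The 6 ileal markers summed to 281 to 591 CPM in KO, 531 to 1364 CPM in HET and 576 to 1167 CPM in WT. The 6 proximal markers summed to 148.3 to 199.9 CPM in KO, 88.7 to 160.1 CPM in HET and 96.0 to 147.6 CPM in WT. Of these 6 proximal markers 4 were detected, and Gata4 alone held 76.0 to 137 CPM. Members of a list did not all go the same way. In KO, HET and WT, ileal Cubn averaged 107, 455 and 336 CPM, but Slc51b 27.7, 22.4 and 28.7 CPM. Proximal Onecut2 averaged 33.4, 19.2 and 11.2 CPM, but Cybrd1 1.65, 2.73 and 1.71 CPM. Whether the segments differed by genotype, and their part in the comparisons below, was not tested. HET amino 1 and HET hydroxy 1 were from the older HET mice.

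Slc39a4 lies on chromosome 15 from 76612383 to 76616852 on the minus strand, and Slc39a5 on chromosome 10 from 128395931 to 128401224 on the minus strand (coordinates of the deposited table, mm10 per the submitters' processing notes). GENCODE M21 gives the first transcript of Slc39a4 11 exons and 2063 bases, and that of Slc39a5 12 exons and 1947 bases. Both genes are protein-coding, and no other listed gene overlaps them in the table. In GENCODE the plus-strand transcript Ankrd52-202 spans Slc39a5, but it shares 0 exon bases with it. The sources used here do not say whether counting used the strand.

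The 170 bases between Nabp2, the next gene upstream, and the RefSeq start of Slc39a5 are shown because they carry the only match in the 2 promoter windows of this gene to the core of the metal response element, the site bound by the zinc-sensing factor MTF1. They are chr10:128401225-128401394, minus strand, from RefSeq (GRCm38.p6), and capitals mark the match.

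Slc39a5 upstream: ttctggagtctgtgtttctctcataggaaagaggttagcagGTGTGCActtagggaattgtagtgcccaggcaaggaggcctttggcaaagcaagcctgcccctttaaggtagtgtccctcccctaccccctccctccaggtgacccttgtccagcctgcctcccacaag

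The core was searched as TGCACNC and TGCGCNC on both strands, with overlapping matches counted apart. The match in capitals reads on the opposite strand and ends 122 bases before the start. The window of the second Slc39a5 start held 0 matches. Of 32851 promoter windows of 300 bases in the table, 25.7% held at least 1, so a match of this kind is common. The windows of the metallothionein genes Mt1 and Mt2 held 3 and 4 matches, and that of the exporter gene Slc30a1 held 2. The Slc39a4 promoter was not used here.

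The targeted gene, Slc39a4, was lowest in the KO libraries, which still held reads of it. It stood at 42.0 and 64.8 CPM in KO hydroxy, and at 90.1 and 91.6 CPM in KO amino. It stood at 145 and 267 CPM in HET hydroxy, and at 117 and 249 CPM in HET amino. It stood at 256 and 188 CPM in WT hydroxy, and at 256 and 218 CPM in WT amino. All 4 KO libraries lay below all 8 others, while HET and WT overlapped. Of 14001 genes tested, 1.15% had all 4 KO libraries below the rest in this way.

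**Figure D1:**
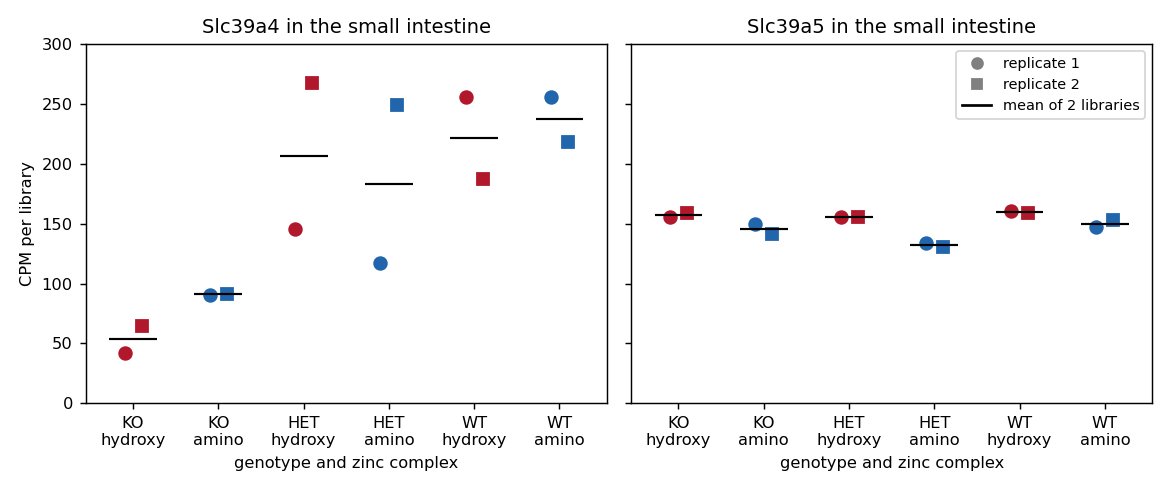
CPM of Slc39a4 (left) and Slc39a5 (right) in each of 12 libraries, by genotype and zinc complex (red hydroxy, blue amino), with a line at the mean of each pair. Slc39a4 is at 42.0 to 91.6 CPM in KO and at 117 to 267 CPM in HET and WT, while Slc39a5 stays between 130 and 160 CPM in every library.

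By genotype, Slc39a4 averaged 72.1 ± 23.6 CPM in KO, 195 ± 74.4 CPM in HET and 229 ± 33.1 CPM in WT (SD, n = 4 each). KO libraries thus held 37.0% of the level in HET and 31.4% of that in WT. An exact two-sided permutation test of log2(CPM + 1) gave p = 0.0286 for KO against WT and for KO against HET, the smallest p that 4 against 4 allows. Against the 8 WT and HET libraries together the difference was −1.56 on the log2 scale, with an exact permutation p of 0.00202, also the smallest possible. In limma's model over all genes the change against HET was −1.40 (95% interval −2.02 to −0.78, adjusted p = 0.0273), a call shared with 6.84% of genes. Against WT it was −1.71 (95% interval −2.33 to −1.09, adjusted p = 0.0736), in a comparison where limma called 0.0286% of genes and 9.79% had an unadjusted p under 0.05.

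The limma call against HET depended on single libraries. The adjusted p was 0.0585 to 0.103 without HET amino 2 (−1.13), HET hydroxy 1 (−1.62), KO hydroxy 1 (−1.25), KO amino 1 (−1.40) or KO amino 2 (−1.41). It was 0.0503 to 0.0506 without KO hydroxy 2 (−1.56), WT amino 1 (−1.40) or WT amino 2 (−1.40). The exact test against HET had p = 0.0571 without KO hydroxy 1 (−1.17) or KO hydroxy 2 (−1.37). Without both KO amino libraries, whose sex labels did not hold, only the hydroxy groups could be set against each other in limma, at −1.90 against HET (adjusted p = 0.110).

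The KO difference was as large relative to epithelial RNA. In bulk tissue, fewer cells of a type and less RNA per cell cannot be told apart, so each library's Slc39a4 was also set against the mean log2(CPM + 1) of the 13 epithelial genes, among them the adhesion gene Epcam and the microvillus gene Vil1. On this scale KO differed by −1.73 from WT and by −1.51 from HET, each with an exact permutation p of 0.0286. As a share of the summed epithelial CPM, Slc39a4 was 0.410% to 1.08% in KO, against 1.75% to 2.59% in HET and 2.07% to 2.51% in WT. The epithelial genes themselves summed to 8475 to 10865 CPM in KO, 6136 to 12121 CPM in HET and 7458 to 11844 CPM in WT, so the genotypes overlapped in epithelial RNA.

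Slc39a5 stayed at nearly 1 level in all genotypes. It stood at 156 and 159 CPM in KO hydroxy, and at 150 and 141 CPM in KO amino. It stood at 155 and 156 CPM in HET hydroxy, and at 134 and 130 CPM in HET amino. It stood at 160 and 159 CPM in WT hydroxy, and at 147 and 153 CPM in WT amino. The genotypes overlapped, with the 2 lowest values in HET amino.

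By genotype, Slc39a5 averaged 151 ± 7.62 CPM in KO, 144 ± 13.4 CPM in HET and 155 ± 5.96 CPM in WT (SD, n = 4 each). KO held 97.8% of the WT level and HET 92.9% of it. The log2 change of KO against WT was −0.033, with a 95% interval from −0.26 to 0.19, which as a fold runs from 0.837 to 1.14 (limma adjusted p = 0.905, exact permutation p = 0.486). Changes of any size within that interval remain compatible with the data of 4 mice per genotype. KO against HET was 0.076 (95% interval −0.15 to 0.30, exact permutation p = 0.314), and HET against WT was −0.11 (95% interval −0.33 to 0.11, exact permutation p = 0.229).

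**Figure D2:**
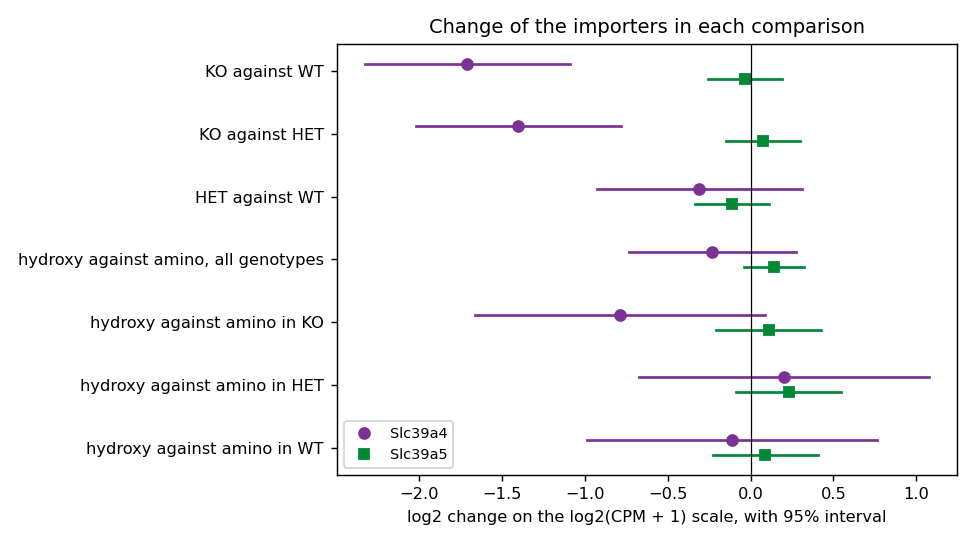
Log2 change of Slc39a4 (purple circles) and Slc39a5 (green squares) in 7 comparisons, from limma on log2(CPM + 1), with 95% intervals. The intervals of Slc39a4 lie below 0 in KO against WT and KO against HET, and every interval of Slc39a5 includes 0.

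The narrow range of Slc39a5 set it apart in the description of spread, which was added after its values were seen. Its SD was 6.58% of its mean over the 12 libraries. Of 2949 genes with a mean of at least 50 CPM, 11 had a smaller ratio of SD to mean, and the median was 21.4%. Slc39a4 had 50.3% over the same libraries, more than 94.9% of these genes. Within genotypes Slc39a5 was less extreme. It had 5.04% within KO, with 73 genes lower, 9.32% within HET, with 399 lower, and 3.85% within WT, with 104 lower. Slc39a4 had 14.4% within WT, where the gene is not targeted, near the median of 13.5%. After median-ratio scaling 24 genes had a smaller ratio than Slc39a5, at 7.64%.

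**Figure D3:**
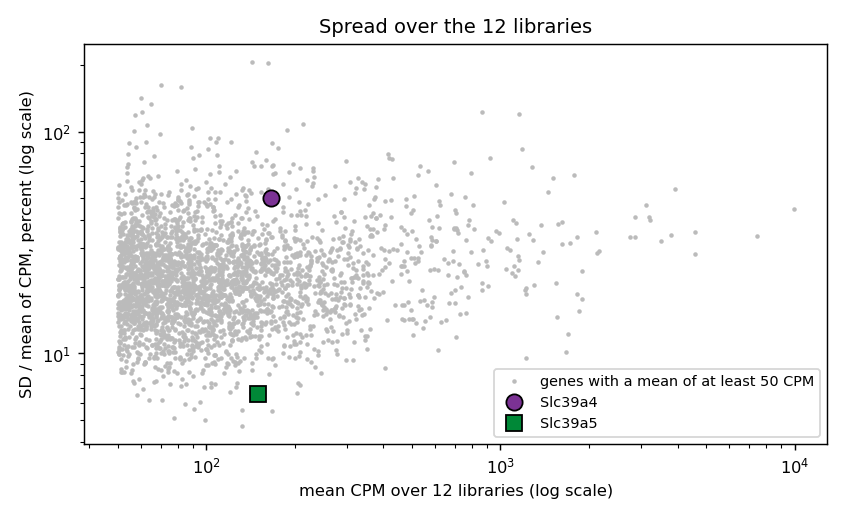
SD of CPM as a percent of the mean over 12 libraries (log scale) against mean CPM (log scale) for genes with a mean of at least 50 CPM (grey), with Slc39a4 (purple circle) and Slc39a5 (green square). Slc39a5 is at 6.58%, near the lower edge of the cloud, and Slc39a4 is at 50.3%, near the upper edge.

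Taken at the length of their first transcripts, the order of the 2 importers differed between KO and WT. Per kilobase of its first transcript, Slc39a4 averaged 35.0 ± 11.4 CPM in KO, 94.4 ± 36.1 CPM in HET and 111 ± 16.1 CPM in WT. Slc39a5 averaged 77.8 ± 3.92 CPM per kilobase in KO, 73.9 ± 6.88 CPM in HET and 79.5 ± 3.06 CPM in WT (SD, n = 4). At these lengths the apical importer's RNA was thus below the basolateral one's in all 4 KO libraries and above it in all 4 WT libraries. The HET libraries were on both sides. GENCODE also gives Slc39a4 a protein-coding transcript of 2750 bases. At that length Slc39a4 would lie below Slc39a5 per kilobase in WT hydroxy 2, which held 188 and 159 CPM of them. The order in WT thus depends on the transcript taken. The exons removed in KO are not given, so the transcript length there is unknown.

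The ratio of Slc39a4 to Slc39a5 CPM within a library, which does not depend on how the library was scaled, was 0.270 and 0.409 in KO hydroxy and 0.601 and 0.648 in KO amino. It was 0.875 to 1.91 in HET and 1.18 to 1.74 in WT. Every KO library was below every other library. The log2 ratio, taken with 1 added to each CPM, differed by −1.68 between KO and WT and by −1.48 between KO and HET, each with an exact permutation p of 0.0286. Between HET and WT it differed by −0.20 (exact permutation p = 0.514). Without KO hydroxy 1 the ratio of KO against HET was −1.23 (exact permutation p = 0.0571).

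**Figure D4:**
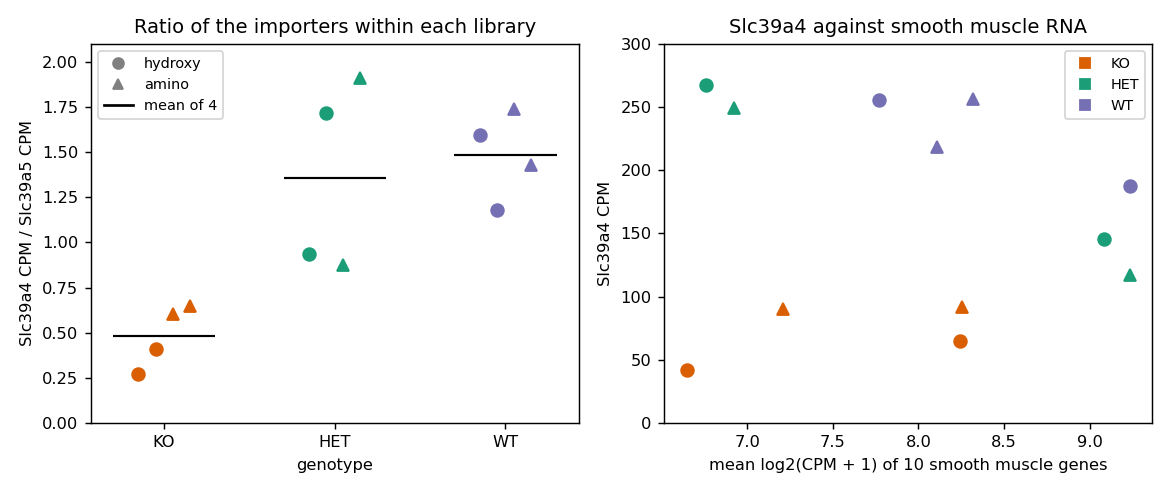
Left, ratio of Slc39a4 to Slc39a5 CPM in each library by genotype (circles hydroxy, triangles amino, line at the mean of 4). Right, Slc39a4 CPM against the mean log2(CPM + 1) of 10 smooth muscle genes. KO libraries lie between 0.270 and 0.648 in the left plot, and among HET and WT libraries in the right plot Slc39a4 is at 267 CPM where muscle RNA is least and at 117 CPM where it is most.

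HET mice carried no detectable shortfall of Slc39a4 RNA, but their libraries split by age. HET against WT was −0.31 on the log2 scale, with a 95% interval from −0.93 to 0.31, or 0.526 to 1.24 as a fold (limma adjusted p = 0.649, exact permutation p = 0.371). In this comparison limma called 0% of genes, and 15.3% had an unadjusted p under 0.05. The younger HET mice, 141 and 143 days old, held 249 and 267 CPM, and the older ones, 363 and 338 days old, held 117 and 145 CPM. Without the older mice HET against WT was 0.18 (limma adjusted p = 0.693), so the sign depended on them. With 1 library left out it ran from −0.58, without HET amino 2, to −0.038, without HET amino 1.

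Smooth muscle RNA moved with that split. The 10 smooth muscle genes, among them the myosin gene Myh11, summed to 8368 and 7490 CPM in the older HET libraries, against 1819 and 1517 CPM in the younger. Over the 8 HET and WT libraries Slc39a4 was lower where the smooth muscle mean was higher (Pearson r = −0.80, exact permutation p = 0.00804, adjusted over 5 relations 0.0402; Spearman rho = −0.81, p = 0.0218, adjusted 0.109). Without the 2 libraries farthest from the median of the muscle mean, r was −0.83. With the epithelial mean r was 0.82 (exact permutation p = 0.0290, adjusted 0.0725; rho = 0.62, adjusted p = 0.287) and 0.60 without the 2 farthest libraries. HET and WT hold 4 libraries each, too few for a value within either. With the smooth muscle mean as a term in limma, HET against WT was −0.40 (adjusted p = 0.248). No relation was computed within KO. There KO hydroxy 1, with the least muscle RNA of the 12 at 1378 CPM, also held the least Slc39a4.

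No relation of Slc39a5 passed. Its r was 0.17 with the epithelial mean (exact permutation p = 0.684) and 0.12 with the smooth muscle mean (exact permutation p = 0.758). Without the 2 farthest libraries these were −0.24 and −0.36, so both changed sign. Slc39a4 and Slc39a5 had an r of 0.24 with each other over the same 8 libraries (exact permutation p = 0.580, rho = 0.21, p = 0.619), and of −0.18 without the 2 farthest libraries. All 3 adjusted p-values were 0.758.

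The zinc complex went with a small, ordered difference in Slc39a5. All 6 hydroxy libraries (155 to 160 CPM) lay above all 6 amino libraries (130 to 153 CPM). Hydroxy libraries averaged 157 ± 2.17 CPM and amino libraries 143 ± 8.94 CPM (SD, n = 6 each), a ratio of 110%. Of 14001 genes tested, 0.121% had all hydroxy libraries above all amino libraries. Both hydroxy libraries lay above both amino libraries in each of the 3 genotypes, which held for 1.32% of genes.

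The log2 difference was 0.14, and an exact permutation of the labels within genotype gave p = 0.00926, the smallest possible over 216 relabellings. In limma, where the spread of a gene is drawn towards that of genes of like level, it did not pass (95% interval −0.040 to 0.33, adjusted p = 0.614, with 0% of genes called and 8.96% at an unadjusted p under 0.05). By genotype it was 0.11 in KO, 0.23 in HET and 0.089 in WT. The difference of the complex effect between KO and WT was 0.020 (limma adjusted p = 0.995).

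This difference in Slc39a5 depended on the scaling. The median gene was itself 0.068 higher on the log2 scale in hydroxy libraries. With median-ratio scaling, which sets that median to about 0, hydroxy libraries ranged from 140 to 162 CPM and amino libraries from 127 to 159 CPM, the difference was 0.066 and the exact permutation p was 0.269. With quantile normalization it was 0.11 (exact permutation p = 0.037), and the groups overlapped there too. Without both KO amino libraries, over HET and WT only, it was 0.16, with an exact permutation p of 0.0556, the smallest that these 8 libraries allow.

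For Slc39a4 no difference between the complexes passed over all genotypes, at −0.23 (95% interval −0.74 to 0.27, limma adjusted p = 0.811, exact permutation p = 0.398). The hydroxy libraries averaged 160 ± 94.5 CPM and the amino libraries 170 ± 79.1 CPM. Within KO, hydroxy averaged 53.4 ± 16.2 CPM and amino 90.9 ± 1.02 CPM (SD, n = 2 each). Both KO hydroxy libraries were below both KO amino libraries, but the change of −0.79 did not pass (95% interval −1.66 to 0.086, limma adjusted p = 0.410), and 2 libraries a group leave no exact test that could. It was −0.48 without KO hydroxy 1 and −1.10 without KO hydroxy 2. In limma 0% of genes passed in this comparison, and 13.7% had an unadjusted p under 0.05. Absorptive enterocyte markers, such as the apolipoprotein genes Apoa4 and Apoa1, summed to 50480 and 34906 CPM in KO hydroxy, against 44764 and 59259 CPM in KO amino. These sums overlapped, and their part in the difference was not tested. With the epithelial mean as a term in limma the change within KO was −0.99 (adjusted p = 0.186). The smooth muscle mean as a term gave −0.86 (limma adjusted p = 0.132). Within HET the change was 0.20 and within WT −0.11, and both 95% intervals included 0 (−0.67 to 1.08 in HET and −0.98 to 0.76 in WT).

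Other zinc genes were counted to place the importers. Of 12 other ZIP genes 10 were tested, of 10 ZnT genes 8, and of 6 genes for zinc binding and regulation 5. In KO against WT none of these 23 passed in limma, and 2 had an unadjusted p under 0.05, both ZnT genes, beside 9.79% of all genes. The median log2 change was 0.17 for the ZIP genes, 0.11 for the ZnT genes and −0.34 for the binding and regulation list, beside 0.018 for all genes tested. Slc30a2, an exporter of vesicles and secretory granules, averaged 32.5 ± 13.6 CPM in KO and 62.8 ± 15.5 CPM in WT (log2 change −0.99, adjusted p = 0.320). Slc30a10, a manganese exporter of the cell surface, averaged 39.9 ± 18.8 CPM in KO and 21.8 ± 5.31 CPM in WT (0.73, adjusted p = 0.493). Their intervals lay away from 0, but neither passed the adjustment. With 1 library left out Slc30a2 ran from −1.22 to −0.76 and Slc30a10 from 0.41 to 1.06.

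Among the importers, Slc39a14, an importer of zinc, iron and manganese, averaged 124 ± 34.6 CPM in KO and 93.8 ± 18.8 CPM in WT (0.38). Slc39a7, which releases zinc from the endoplasmic reticulum, averaged 132 ± 30.3 CPM in KO and 111 ± 8.41 CPM in WT (0.22), and Slc39a9 was at 0.31 and Slc39a10 at 0.51. None of these 4 passed (adjusted p = 0.566 to 0.616), and with 1 library left out Slc39a10 ran from 0.18 to 0.85, Slc39a14 from 0.24 to 0.52, Slc39a9 from 0.18 to 0.44 and Slc39a7 from 0.14 to 0.30. The metallothionein gene Mt1 was at −0.84, the zinc sensor gene Mtf1 at −0.40 and Klf4, a transcription factor reported to drive mouse Zip4, at −0.34 (adjusted p = 0.566 to 0.675). These sizes rested on single libraries: leaving out 1 gave −1.40 to −0.28 for Mt1, −0.55 to −0.25 for Mtf1 and −0.57 to −0.10 for Klf4. Mt1 averaged 28.5 ± 32.3 CPM in KO and 37.2 ± 11.6 CPM in WT. Slc30a9 was at 0.17 and Mt3 at 0.082.

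**Figure D5:**
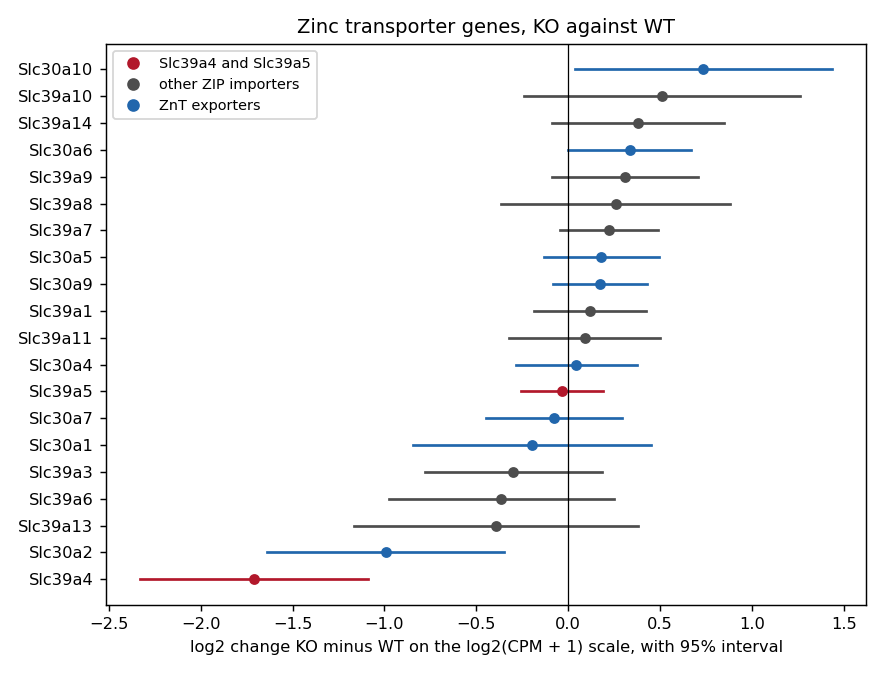
Log2 change of zinc transporter genes in KO minus WT from limma on log2(CPM + 1), with 95% intervals (red Slc39a4 and Slc39a5, grey other ZIP genes, blue ZnT genes). Slc39a4 is at −1.71 and Slc39a5 at −0.033; no gene shown passes the adjusted threshold.

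In KO against HET, 1 of the 23 other zinc genes passed. Slc30a6, of the ZnT list, rose by 0.62, at 23.5 ± 1.77 CPM in KO and 15.2 ± 3.63 CPM in HET (limma adjusted p = 0.0441). Of all genes, 3.44% rose in this comparison, and the call ended without any single library other than HET hydroxy 2, with adjusted p-values up to 0.164 (log2 change 0.51 to 0.73). In the other 7 comparisons none of the 23 passed. Against WT, Slc30a6 was at 0.33 (adjusted p = 0.512).

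Neither neighbour of Slc39a4 was lowest in KO. Cpsf1, the next listed gene 4791 bases from Slc39a4, averaged 53.6 ± 15.1 CPM in KO, 50.7 ± 3.21 CPM in HET and 40.5 ± 3.08 CPM in WT. Vps28, on the other side at 5233 bases, averaged 81.4 ± 3.42 CPM in KO, 69.5 ± 12.4 CPM in HET and 96.4 ± 5.47 CPM in WT. Nabp2, 170 bases upstream of Slc39a5, ranged from 17.1 to 67.1 CPM, and Ankrd52, 1924 bases on the other side, from 13.6 to 48.2 CPM, a wider relative range than that of Slc39a5.

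The genes most like each importer were named by the highest Pearson r on log2(CPM + 1) among 8414 others with a mean of at least 10 CPM, as a description. Over the 8 HET and WT libraries, Slc39a4 was most like Sgpl1, the sphingosine phosphate lyase (r = 0.979), Arhgef16 (0.978), Eps8l2 (0.971), the microvillus protocadherin gene Cdhr5 (0.969) and Gm8909 (0.966), with a median of −0.15 over all genes. These libraries share the split in muscle RNA described above. Over the 12 libraries, Slc39a5 was most like Triap1 (r = 0.922), the autophagy protease gene Atg4b (0.893), Pigf (0.888), Pycrl (0.880) and Ebpl (0.879), with a median of 0.067.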

How the data were processed

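RNA-seq of the whole small intestine was deposited by the authors as 1 table of CPM values for 17112 genes, with 0.0001 added to every value. Per the submitters' processing notes, Partek, TopHat2 and mm10 were used. The sources used here give no counter, annotation, filters or strand setting. Listed genes summed to 62.0% to 71.8% of a library. Between 93.1% and 94.5% of values under 200 reads were within 0.05 of whole reads, so no count test was run. Limits in reads cover counting error only.

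Groups came from the sample labels, and columns were matched by title. The 14001 genes that reached 1 CPM in 2 or more libraries were analysed as log2(CPM + 1), which understates changes of low genes. Limma 3.58.1 in R 4.3.3 (6 group means, trend, two-sided, 6 residual and 3.61 prior degrees of freedom, Benjamini-Hochberg over all genes, threshold 0.05) gave adjusted p-values, and its script was tested on simulated data. Single values were compared by exact two-sided permutation tests over libraries, with relabellings at least as far from 0 counted (Python 3.11.15). The p-values rest on the spread between mice, 4 per genotype. Correlations took all pairings, with the two-sided p of SciPy 1.17.1. Detected genes are those that passed this filter. Named genes were the importers, up to 4 other zinc genes with the smallest p per list in KO against WT and any that passed, the listed neighbours, the 5 most alike genes and abundant markers. Members and lists were chosen with earlier results of these data known. Alternatives covered pseudocount, filter, scaling, weights, covariates, libraries left out and groups fitted.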

Additional observations from a re-analysis of the deposited data

How the results depend on the processing

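Over other settings than left-out libraries, 352 of 393 values of the importers kept their direction and side of the threshold, 15 lost a call, 7 gained one and 19 changed sign. With 1 library left out the counts were 356 of 384, with 13 lost and 15 turned. Values are log2 differences, and the cause of each change was not tested. Slc39a4 in KO against WT passed in limma with quantile normalization (−1.74), library weights (−1.71), age (−1.69), the epithelial mean (−1.74) or the smooth muscle mean (−1.90) as a term, without both older HET mice (−1.71) and with only the groups compared (−1.71), at adjusted p = 0.00456 to 0.0460. In the remaining 8 of 15 such settings it did not pass, and with 1 library left out it was −1.86 to −1.56. In KO against HET Slc39a4 lost its call without both KO amino libraries (−1.90), without both Fabp6 libraries (−1.13) and with only the groups compared (−1.40). Leaving out 1 library gave −1.67 to −1.13 for KO against HET in limma and −1.62 to −1.17 in the exact test.

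Sign changes were mostly of small values. For Slc39a5 in KO against HET they were −0.042 with quantile normalization and −0.00060 rescaled to listed genes, and in KO against the other genotypes −0.080 with quantile normalization (−0.0054 to 0.054 with 1 library left out). For its complex effect in KO minus WT they were −0.030 with quantile normalization and −0.021 with median-ratio scaling (−0.023 to 0.063 with 1 library left out), and for hydroxy against amino in KO −0.013 with median-ratio scaling. Its call for the complex ended with median-ratio scaling (0.066). Without both KO amino libraries it was larger (0.16), but the exact test could not then go below 0.0556. With 1 library left out, Slc39a4 in hydroxy against amino was −0.34 to 0.74 in HET and −0.33 to 0.11 in WT, and its complex effect in HET minus WT −0.23 to 0.85.

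Without both KO amino libraries 2 against 4 allows no exact p under 0.0667: Slc39a4 was −2.10 in KO against WT and −1.80 in KO against HET, its ratio to Slc39a5 −2.12 and −1.93, and relative to epithelium −2.21 and −2.0. There Slc39a4 in hydroxy against amino was 0.047 and Slc39a5 in KO against WT 0.022. Without both older HET mice the same limit held for KO against HET, with Slc39a4 at −1.89, the ratio at −1.97 and relative to epithelium −1.79. HET against WT was then 0.18, 0.30 and 0.061, and Slc39a5 relative to epithelium in KO against HET 0.18. Without both Fabp6 libraries, relative to epithelium, Slc39a4 in KO against HET was −1.46 (exact permutation p = 0.0571) and Slc39a5 in HET against WT 0.061. Relative to the enterocyte list Slc39a4 in HET against WT was 0.054, and Slc39a5 was 0.062 in KO against WT and 0.25 in HET against WT. With 1 library left out the ratio in KO against HET was −1.66 to −1.23, Slc39a4 relative to epithelium in KO against HET −1.73 to −1.25, and Slc39a5 relative to epithelium −0.12 to 0.056 in KO against WT, −0.18 to 0.064 in KO against HET and −0.12 to 0.12 in HET against WT. Mt3 in KO against WT was −0.11 to 0.26. Of the other zinc genes 183 of 193 values and, with 1 library left out, 142 of 154 kept their direction and side.

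Genes called in KO against WT numbered 4, and 1 to 276 in other settings (1 to 14 with 1 library left out). In KO against HET they numbered 957, and 2 to 3561 (1 to 1396). In HET against WT they numbered 0, and 0 to 1101 (0 to 109). The complex gave 0 over all genotypes and 0 to 2 with 1 library left out, and 0 in KO, with 0 to 5 elsewhere. No paired analysis was possible because the labels give no replicate numbers, and those used here only name the mice. Genes near 3 reads, 0.0774 to 0.115 CPM, were not measurable; neither importer is near that depth.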
